A study of Homo sapiens with 16 samples.

Results

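The genes described here are 36 human genes that write, erase and read histone acetylation, chosen by their symbols in the GENCODE annotation of hg38. They comprised 12 acetyltransferases, 16 deacetylases (9 classical HDACs and 7 sirtuins), the corepressor NCOR1, 5 bromodomain readers, and EZH2 and KDM6B, which act on methylation of the same lysine, H3K27. All 36 were found among the 19970 protein-coding genes on autosomes and chromosome X that served as the background. The study asked how inhibition of the O-GlcNAc transferase OGT changes H3K27ac in LX-2 cells, an immortalised line of human hepatic stellate cells with a myofibroblastic phenotype. For 24 h the cells were given either vehicle (DMSO, control) or OSMI-1, an inhibitor of OGT, at 50 µM (OGTi), and H3K27ac ChIP-seq was run on 4 biological replicates per arm, 8 of the 16 libraries. The other 8 libraries, inputs and column-purified chromatin (CoP), are not analysed here.

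The data are a pair of pooled lists of hg38 intervals, 3507 regions that lost and 3623 that gained H3K27ac in OGTi-treated cells. Lost regions made up 49.2% of the 7130 listed. The lists hold positions only, without signal, fold change, p-value or replicate values. No value below therefore has a replicate error, the depth behind a region is unknown, and a gene without a listed region is not shown to keep its H3K27ac. A region was counted in a gene body by its centre, and near a 5′ end by its closest base. The 36 genes were read against the share of all 19970 genes with the same kind of region, as a description and with no test. Expression was not measured in these lists, so neither the identity of the LX-2 cells nor the activity of any gene could be checked with markers.

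Acetyltransferases place acetyl groups on histone lysines, which loosens chromatin and creates docking sites, and EP300 and CREBBP are the enzymes that place H3K27ac at enhancers and active promoters. Deacetylases remove these groups. The classical HDACs use zinc and often work within corepressor complexes such as that of NCOR1 with HDAC3, while sirtuins depend on NAD and some of them act in the cytoplasm or mitochondria. Bromodomain proteins bind acetylated lysines and recruit the transcription machinery, EZH2 methylates H3K27 within Polycomb complexes, and KDM6B removes that methylation. In stellate cells these enzymes are studied as regulators of the switch to a matrix-producing myofibroblast.

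Listed regions lay in the body or at the 5′ end of 6 of the 36 genes, and of 16.8% of all protein-coding genes. Gained H3K27ac covered the 5′ ends of KAT6A, an acetyltransferase of the MYST family, and SIRT6, a nuclear deacetylase of histone H3. It was also found inside NCOA3, a nuclear receptor coactivator with reported acetyltransferase activity, and inside KDM6B. Lost H3K27ac covered the 5′ end of BRD3, a reader of the BET family. HDAC9, a class IIa deacetylase, held both kinds. The other 30 genes had no listed region there. Neither EP300 nor CREBBP had any region in the body or within 100 kb of its 5′ end, as was the case for 55.1% of all genes.

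The DNA of the regions in these genes fell into GC-rich sequence at the 5′ ends and AT-rich sequence within the long introns. The intronic examples below are the central bases of regions of NCOA3, HDAC9 and KDM6B, read from the hg38 plus strand and kept clear of annotated exons. Capitals mark matches, on either strand, to the TEAD core CATTCC, the AP-1 site TGANTCA or the SP/KLF box GGGCGG.
NCOA3 gained, chr20:47607088-47607387, plus strand: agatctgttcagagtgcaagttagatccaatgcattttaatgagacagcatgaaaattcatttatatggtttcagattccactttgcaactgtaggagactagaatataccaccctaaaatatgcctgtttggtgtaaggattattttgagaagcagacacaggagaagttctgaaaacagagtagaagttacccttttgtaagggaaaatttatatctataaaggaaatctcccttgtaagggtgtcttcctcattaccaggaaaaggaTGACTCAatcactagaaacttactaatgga
HDAC9 lost, chr7:18408557-18408856, plus strand: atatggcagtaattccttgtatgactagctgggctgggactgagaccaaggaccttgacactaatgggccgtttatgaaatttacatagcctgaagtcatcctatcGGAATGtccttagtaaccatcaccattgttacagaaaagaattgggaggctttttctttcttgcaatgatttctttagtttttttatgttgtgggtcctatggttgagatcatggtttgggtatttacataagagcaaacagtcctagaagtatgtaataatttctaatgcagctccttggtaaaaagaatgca
HDAC9 gained near the canonical start, chr7:18509019-18509272, plus strand: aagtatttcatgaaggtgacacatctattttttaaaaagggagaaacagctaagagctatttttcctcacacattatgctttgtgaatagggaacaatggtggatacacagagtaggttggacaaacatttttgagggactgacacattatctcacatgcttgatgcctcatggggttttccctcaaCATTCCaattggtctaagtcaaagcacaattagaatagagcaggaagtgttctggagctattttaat
HDAC9 gained in the distal intron, chr7:18895477-18895776, plus strand: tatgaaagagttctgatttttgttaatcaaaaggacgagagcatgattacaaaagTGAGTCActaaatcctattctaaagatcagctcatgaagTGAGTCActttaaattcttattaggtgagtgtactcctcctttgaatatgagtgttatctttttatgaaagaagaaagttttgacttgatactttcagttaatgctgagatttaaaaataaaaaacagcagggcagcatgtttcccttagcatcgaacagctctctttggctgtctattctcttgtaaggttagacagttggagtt
KDM6B gained, chr17:7842711-7843010, plus strand: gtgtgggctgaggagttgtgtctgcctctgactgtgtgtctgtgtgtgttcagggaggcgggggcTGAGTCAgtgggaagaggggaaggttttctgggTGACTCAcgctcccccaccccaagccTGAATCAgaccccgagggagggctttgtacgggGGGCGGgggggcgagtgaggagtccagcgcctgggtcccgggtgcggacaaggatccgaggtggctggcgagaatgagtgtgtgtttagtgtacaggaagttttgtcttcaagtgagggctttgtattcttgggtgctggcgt
The windows of NCOA3 and HDAC9 had a GC content of 34.3% to 38.3% and at most 2 CpG dinucleotides each, whereas the KDM6B window had 60.3% GC and 12 CpG. The NCOA3 window held 1 AP-1 match, the distal HDAC9 window 2 and the KDM6B window 3. The lost and the first gained HDAC9 windows each held 1 TEAD core.

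The sequences before the starts of SIRT6 and BRD3 are shown because gained and lost H3K27ac, respectively, lay across them. They read in the direction of each gene, on the minus strand. Capitals mark GGGCGG and, in SIRT6, the ETS site CCGGAAG, on either strand.
SIRT6 gained, chr19:4182567-4182688, minus strand: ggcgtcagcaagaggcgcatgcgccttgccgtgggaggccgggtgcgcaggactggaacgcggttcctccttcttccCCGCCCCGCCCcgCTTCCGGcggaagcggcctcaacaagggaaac
BRD3 lost, chr9:134068027-134068276, minus strand: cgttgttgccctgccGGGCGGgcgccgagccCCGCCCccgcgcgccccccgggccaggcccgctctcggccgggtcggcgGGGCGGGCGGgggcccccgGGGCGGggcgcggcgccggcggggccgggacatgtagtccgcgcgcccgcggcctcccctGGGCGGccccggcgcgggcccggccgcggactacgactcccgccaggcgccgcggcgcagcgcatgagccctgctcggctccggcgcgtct
The SIRT6 stretch of 122 bases lies between the first exons of SIRT6 and ANKRD24, which are transcribed in opposite directions. It had 70.5% GC, 14 CpG, 2 overlapping SP/KLF matches and 1 ETS match. The BRD3 stretch ends at the RefSeq start of the gene and had 86.8% GC, 48 CpG and 6 SP/KLF matches. CpG-rich, GGGCGG-bearing start sequence was thus present under a gained region as well as under a lost region. A match to these letters is a description of the sequence and does not show that a factor was bound.

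**Figure D1:**
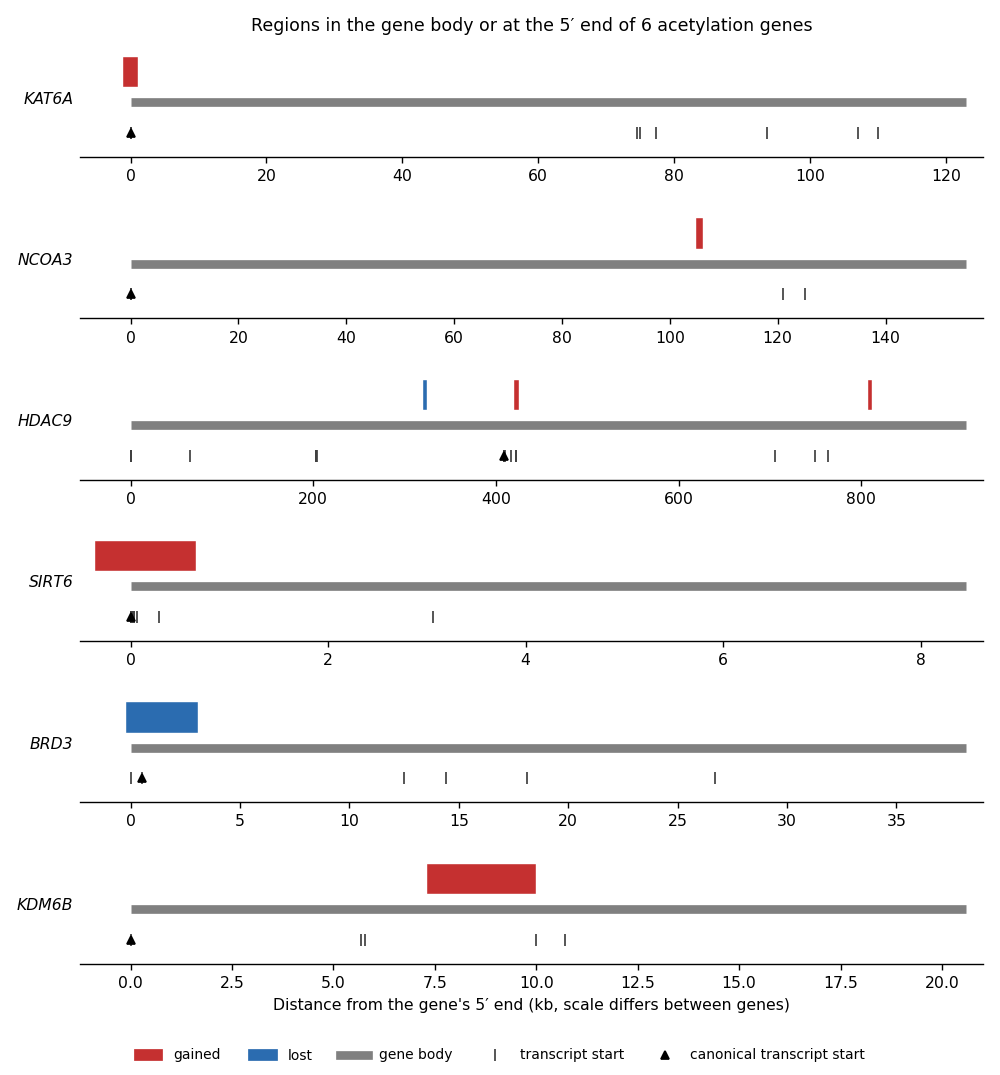
Positions of gained (red) and lost (blue) H3K27ac regions in the gene body or at the 5′ end of 6 genes, in kb from the 5′ end in the direction of transcription, with a separate scale for each gene. Ticks mark annotated transcript starts and triangles the canonical start, and the regions of KAT6A, SIRT6 and BRD3 sit across the 5′ end while those of NCOA3, HDAC9 and KDM6B lie inside the gene.

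Among the 12 acetyltransferases, KAT6A was the only gene with a region at its 5′ end. The gained region spanned 1812 bp (chr8:42051133-42052944) and reached 950 bp upstream and 861 bp downstream of the 5′ end. It had 73.2% GC, a CpG observed/expected ratio of 0.823 and 17 matches to GGGCGG. No other protein-coding 5′ end lay within 100 kb of it, and the nearest lost region was 280.0 kb away. Its paralog KAT6B, which forms the same kind of complex with BRPF proteins, had no region within 100 kb, the nearest lost and gained regions being 470.0 and 530.0 kb from its 5′ end.

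NCOA3 carried a gained region of 803 bp (chr20:47606837-47607639) in intron 2 of its canonical transcript of 23 exons. Its centre lay 105.0 kb from the 5′ end and its edge 15319 bp from the closest annotated NCOA3 transcript start. The region was AT-rich, with 35.1% GC and a CpG ratio of 0.0811. A lost region of 1749 bp (chr20:47452585-47454333) stood 48.4 kb upstream, and no protein-coding 5′ end was closer to it than that of NCOA3. Gained and lost H3K27ac therefore flanked the same start at different distances. The paralogs NCOA1 and NCOA2, coactivators of the same p160 group, had no region within 100 kb. Their nearest regions were a gained region at 130.0 kb for NCOA1 and a lost region at 833.0 kb for NCOA2.

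EP300 and CREBBP, the paralogous enzymes for H3K27, had no region of either kind in the body or within 100 kb, like 55.1% of all genes. The nearest region to EP300 was gained, 113.0 kb away, and its nearest lost region was 582.0 kb away. For CREBBP these distances were 544.0 kb (gained) and 491.0 kb (lost). KAT2A, the GCN5 enzyme of SAGA complexes, also lacked a region within 100 kb, although a gained region lay 103.0 kb away. Its paralog KAT2B had 1 of each kind upstream, a gained region across the starts of RAB5A and EFHB at 93.2 kb and a lost region inside RAB5A at 68.8 kb.

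KAT5, KAT7 and KAT8, also of the MYST family, had regions within 100 kb but outside their gene bodies. KAT5 (TIP60) had a lost region upstream at MAP3K11, at the limit of the window (99089 bp from its 5′ end). KAT7 had a lost region centred 48.0 kb downstream, just past the end of the gene, where TAC4 had the nearest gene 5′ end and an internal KAT7 transcript start was 9826 bp away. KAT8, the H4K16 acetyltransferase, had 2 gained regions upstream, at 61.8 and 40.8 kb, and a lost region at 65.9 kb downstream. The second gained region covered the shared start of ZNF668 and ZNF646. Of the 9 regions within 100 kb of acetyltransferases (5 lost, 4 gained), only the KAT6A promoter region and the region upstream of NCOA3 were nearest to the enzyme gene itself.

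HDAC9 was the deacetylase with the most listed regions inside the gene, 1 lost and 2 gained. It is the longest of the 36 genes, at 915.0 kb, and has 31 annotated transcript starts. A lost region of 821 bp (chr7:18408297-18409117) was centred 322.0 kb from the 5′ end, 87.0 kb before the start of the canonical transcript. A gained region of 2279 bp (chr7:18508030-18510308) followed at 422.0 kb, 13.4 kb past the canonical start, in intron 2, and covered the starts of shorter transcripts. Another gained region of 1148 bp (chr7:18895054-18896201) lay in intron 22 at 809.0 kb. The closest annotated HDAC9 transcript start was 43654 bp from that region. By gene 5′ ends, the nearest protein-coding one was that of TWIST1, a mesenchymal transcription factor, 222.0 kb from it. A further gained region stood 66.0 kb upstream of HDAC9, closest to PRPS1L1. The 3 regions inside the gene had 36.2%, 37.1% and 33.8% GC, and the middle one held 4 TEAD core matches.

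The part of gene length in these counts was not tested. Among the 3661 protein-coding genes longer than 100 kb, 16.0% had a lost region, 20.4% a gained region and 31.9% a region of either kind in the body. Of the 10 members above that length, HDAC9 had both kinds and NCOA3 a gained region, so 2 had a region of either kind. The other class IIa genes differed from HDAC9. HDAC4, at 353.0 kb, had no region in its body or within 100 kb, with the nearest at 452.0 kb (gained) and 536.0 kb (lost). HDAC5 had 2 gained regions and 1 lost region within 100 kb, which lay at LSM12 and UBTF. HDAC7 had a gained region 49.5 kb upstream inside VDR, the vitamin D receptor gene, and HDAC7 was the nearest protein-coding 5′ end to that region.

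The class I deacetylases had no region in the gene body or at the 5′ end. HDAC1 had a gained region over the start of TMEM234, 70.0 kb upstream, and a lost region at FAM167B, 44.5 kb upstream. Its paralog HDAC2 had none within 100 kb, with a lost region at 449.0 kb and a gained region at 1680.0 kb. HDAC3, the catalytic partner of NCOR1, had 2 lost regions inside ARAP3, at 17.2 and 44.5 kb upstream. NCOR1 itself had a lost region of 1638 bp (chr17:16281914-16283551) 64.5 kb upstream in PIGL, with NCOR1 as the nearest protein-coding 5′ end. Both genes of this corepressor pair had lost and no gained regions within 100 kb, distal to their starts. In all, 8 of the 36 genes and 2769 of all 19970 genes had only lost regions there. The nearest protein-coding 5′ ends to the HDAC3 regions were those of FCHSD1 and ARAP3.

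HDAC11, a small class IV enzyme, had 5 lost and no gained regions, at 28.5 to 76.8 kb downstream of its 5′ end. In 4 of these, from 59.9 kb onward, the nearest 5′ end was that of FBLN2, which encodes the matrix protein fibulin-2. The remaining region (chr3:13507151-13509298, 2148 bp) began just past the end of HDAC11, and HDAC11 was the nearest 5′ end. HDAC10, a polyamine deacetylase, had a gained region of 1101 bp (chr22:50244520-50245620) over its 3′ end, centred 6.33 kb from its 5′ end and also covering the start of TUBGCP6. A lost region in PLXNB2 lay 42.3 kb upstream of HDAC10.

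The sirtuins had gained regions for the most part, and SIRT6 alone had a region at its own start. The gained region spanned 1002 bp (chr19:4181919-4182920), from 354 bp upstream to 647 bp downstream of the SIRT6 5′ end. It had 62.9% GC and a CpG ratio of 0.679, and it also lay within 2500 bp of the 5′ end of ANKRD24. H3K27ac of these divergent starts cannot be told apart in a shared region. The nearest lost region was 209.0 kb away.

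The regions within 100 kb of the other sirtuins lay outside the sirtuin genes. SIRT4, a mitochondrial sirtuin, had 8 gained regions upstream, at 73.5 to 37.9 kb, and all 8 were centred in PXN, which encodes the focal adhesion adaptor paxillin. They adjoined each other in blocks of 6 and 2, of 11243 bp (chr12:120227996-120239238) and 4243 bp (chr12:120261533-120265775). The 8 regions are therefore 2 stretches divided into bins, not 8 separate sites. SIRT1 had a gained region 34.8 kb upstream and SIRT5 had a gained region 47.3 kb upstream. SIRT2 had a gained region over the start of HNRNPL, 48.0 kb downstream. SIRT7, a nucleolar sirtuin, had a gained region over the start of ARHGDIA, another inside ASPSCR1 near its start, and a lost region in NOTUM. SIRT3, the main mitochondrial deacetylase, had none, with 339.0 kb to a gained and 469.0 kb to a lost region.

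Within 100 kb the 7 sirtuins thus had 14 gained regions and 1 lost region, and the 9 classical deacetylases 6 gained and 10 lost. Lost regions were 6.67% and 62.5% of these, against 49.2% of both lists together, wherever in the genome they lay. By gene, 1 of the 7 sirtuins (14.3%) had a lost and 6 (85.7%) a gained region within 100 kb. Of the 9 classical deacetylases, 5 (55.6%) had a lost and 5 (55.6%) a gained region. Among all genes these shares were 20.4% (lost) and 29.6% (gained). With regions within 1000 bp of each other merged, the sirtuins had 8 gained regions, since those of SIRT4 became 2. HDAC11 alone held 5 of the 10 lost regions of the classical deacetylases. Sirtuin genes sat among more neighbours, with a median of 6 other protein-coding 5′ ends within 100 kb, against 2 for classical deacetylases and 3 for all protein-coding genes. The part of gene density in these counts was not tested. In 28 of the 31 regions around deacetylases the nearest 5′ end belonged to another gene.

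**Figure D2:**
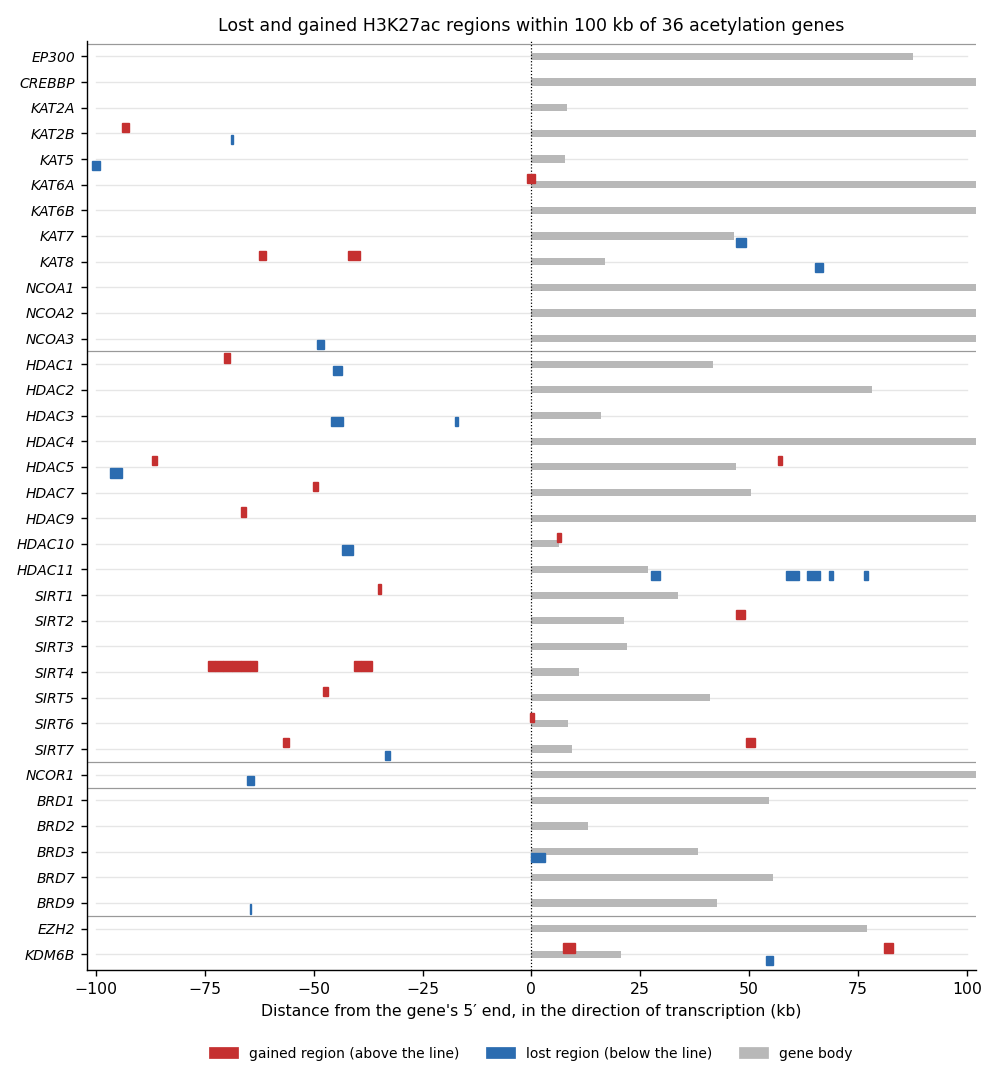
Regions within 100 kb of the 5′ ends of the 36 genes, with gained regions in red above and lost regions in blue below each line, gene bodies in grey, and distance in kb in the direction of transcription. The blocks of 6 and 2 adjoining gained regions upstream of SIRT4 and the 5 lost regions downstream of HDAC11 hold the most regions of any gene, and most regions lie outside the gene bodies.

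Within 100 kb, 2 of the 5 bromodomain readers had a lost region (40.0%, against 20.4% of all genes). A gained region was found for 0 of them, against 29.6% of all genes. At BRD3 the lost region measured 3158 bp (chr9:134065526-134068683), the widest of the 50 regions around the 36 genes. It extended from 148 bp upstream to 3009 bp downstream of the 5′ end and included the canonical start 509 bp into the gene. It had 67.0% GC, a CpG ratio of 0.877 and 20 matches to GGGCGG. The nearest gained region to BRD3 was 338.0 kb away. BRD9, a subunit of a SWI/SNF complex, had a lost region of 385 bp 64.5 kb upstream, with NKD2 as the nearest protein-coding gene. The BET paralog BRD2 had no region within 100 kb, its nearest lost and gained regions being 280.0 and 457.0 kb away. BRD1, a scaffold of MYST complexes, and BRD7, another SWI/SNF subunit, had none either. A lost region was closer than a gained region for 4 of the 5 readers (80.0%, against 40.2% of all genes). The exception was BRD7 (165.0 kb to a gained and 183.0 kb to a lost region). No region in the body or within 100 kb was found for 3 of the 5 (60.0%, against 55.1%). With 5 genes, and 2 lost regions among them, these counts are small.

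Of the enzymes of H3K27 methylation, KDM6B had regions of both kinds and EZH2 had none. KDM6B had a gained region of 2620 bp (chr17:7841552-7844171) in intron 2, centred 8.64 kb from its 5′ end and ending 36 bp from an internal transcript start. It had 64.7% GC, 11 GGGCGG matches and 5 AP-1 matches, 3 of which stood in the window printed above. A lost region at 54.6 kb lay in CHD3, a remodeller of the NuRD deacetylase complex, and a gained region at 82.0 kb covered the start of RNF227. The distances from EZH2 were 439.0 kb to a lost and 1480.0 kb to a gained region.

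Read against all protein-coding genes, the shares in the gene body and at the 5′ end were close to the background. A lost region lay in the body of 2 of 36 genes (5.56%, against 6.11% of all genes) and a gained region in that of 4 (11.1%, against 9.50%). Within 2500 bp of the 5′ end, 1 gene had a lost region (2.78%, against 1.96%) and 2 had a gained region (5.56%, against 6.41%). A region of either kind in one of these places was found for 6 of 36 genes and for 16.8% of all genes. A difference of 1 gene would move each of these shares by more than its distance from the background.

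Within 100 kb the shares were higher. There, 15 of the 36 genes (41.7%) had a lost region, against 20.4% of all genes, and 15 (41.7%) had a gained region, against 29.6%. No region in the body or within 100 kb was found for 13 genes (36.1%), against 55.1%. Of the 36 genes, 7 had both kinds within 100 kb, 8 only lost and 8 only gained regions. Of all 19970 genes, 1313 had both kinds, 2769 only lost and 4597 only gained regions. The median number of other protein-coding 5′ ends in this window was 2.5 for the members and 3 for all genes. Yet only 8 of the 46 regions in it (4 lost, 4 gained) had a member as the nearest protein-coding 5′ end, and 30 were centred in another protein-coding gene. When each region within 100 kb was given to its nearest protein-coding 5′ end alone, 4 members had a lost region (11.1%, against 7.62%) and 4 a gained region (11.1%, against 10.2%). The former were NCOA3, HDAC11, NCOR1 and BRD3 and the latter KAT6A, HDAC7, SIRT6 and KDM6B.

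**Figure D3:**
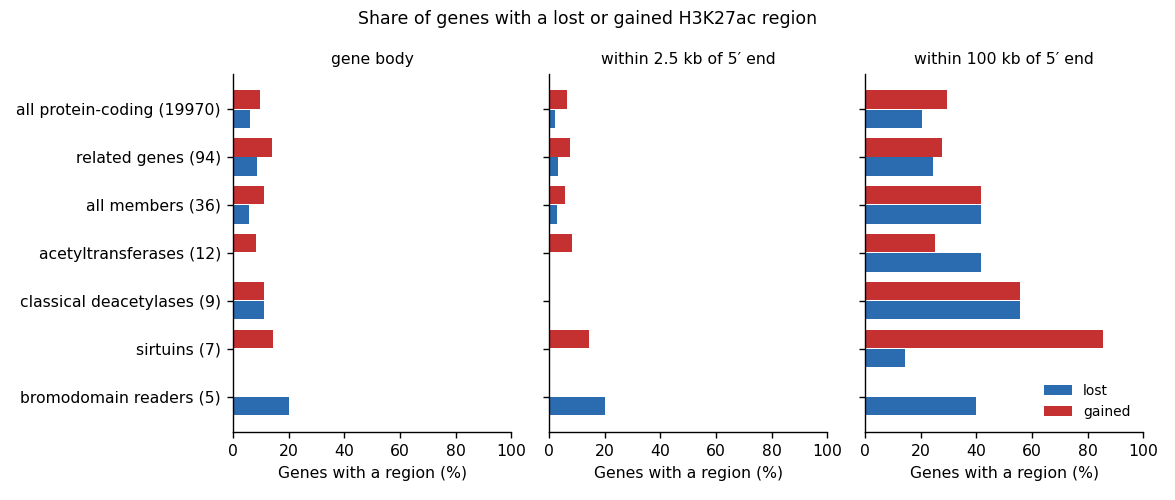
Percentage of genes with a lost (blue) or gained (red) region in the gene body, within 2.5 kb and within 100 kb of the 5′ end, with the number of genes in brackets. The shares of the 36 members in the first 2 panels are near those of all protein-coding genes, and within 100 kb they reach 41.7% for both kinds, while families of 5 to 12 genes move in large steps.

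By distance, the median gene among the 36 was 196.0 kb from a lost and 113.0 kb from a gained region, against 360.0 and 235.0 kb for all genes. The classical deacetylases were closest to lost regions, with a median of 93.9 kb, and the sirtuins to gained regions, with 46.8 kb. Acetyltransferases had medians of 338.0 kb (lost) and 122.0 kb (gained), and readers of 107.0 kb (lost) and 417.0 kb (gained). A lost region was the nearer kind for 18 of the 36 genes (50.0%) and for 40.2% of all genes. For 6 of 7 sirtuins the nearer region was gained.

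**Figure D4:**
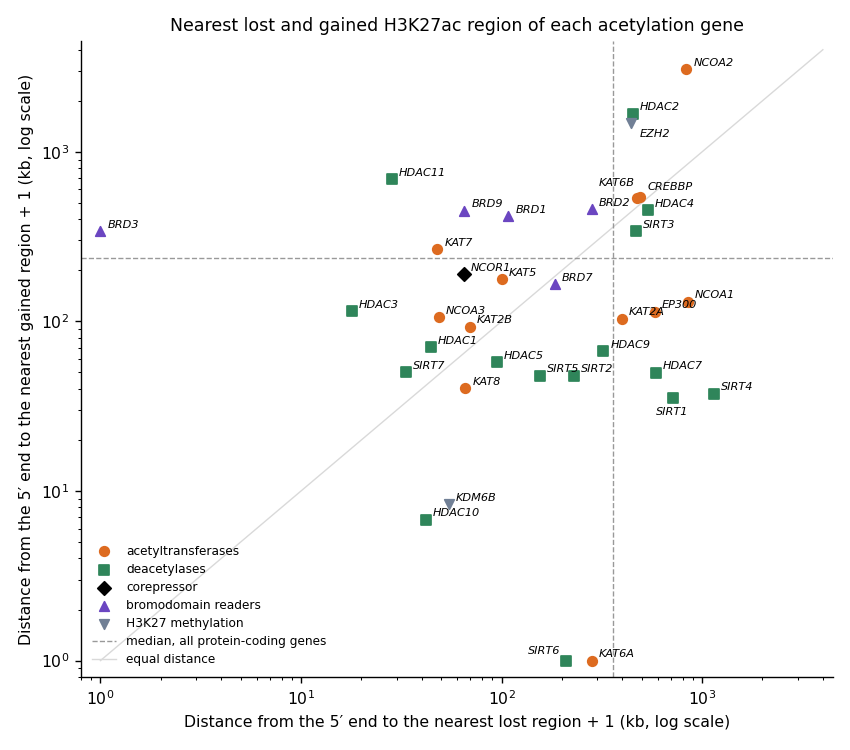
Distance of each gene's 5′ end to the nearest lost (horizontal) and gained (vertical) region, in kb plus 1 on log scales, with dashed lines at the medians of all protein-coding genes. Readers lie above the diagonal except BRD7, closer to lost regions, and sirtuins below it except SIRT7. NCOA2, HDAC2 and EZH2 are the farthest from a gained region.

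RefSeq promoter sequence (GRCh38.p14, 250 bases before to 50 after the start) was matched for 31 of the 36 genes, the others being KAT6A, KAT8, NCOA2, HDAC5 and SIRT7. Most of the 31 were rich in GC and CpG. Their median GC content was 72.7% and their median CpG ratio 0.861, against 62.7% and 0.763 for 15812 protein-coding promoters. The lowest CpG ratios were those of HDAC4 (0.136) and HDAC9 (0.311). GGGCGG occurred in 20 of the 31 (64.5%, against 58.5%) and CCGGAAG in 6 (19.4%, against 14.2%). The TEAD core occurred in 1, NCOA3 (3.23%, against 11.7%), and TGANTCA in 2, HDAC9 and NCOR1 (6.45%, against 5.76%). The cAMP response element TGACGTCA was found in 1, SIRT4 (3.23%, against 2.59%), and the ATF4-C/EBP site TGATGCAA in 0 (against 0.67%). These sequences start far from the GENCODE 5′ end in HDAC2, HDAC4, HDAC7, HDAC9 and SIRT4. The promoters of BRD3 (lost), with 85.0% GC and a CpG ratio of 1.03, and SIRT6 (gained), with 65.0% and 0.917, fell within the range of those without a region, such as NCOA1 (85.7% and 1.11) and CREBBP (70.3% and 0.972).

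Across the 50 regions in the bodies or within 100 kb of the 36 genes (21 lost, 29 gained), base composition was GC-rich compared with the lists they came from. Lost regions had 56.6% ± 8.15 GC (SD over 21 regions), against 48.3% ± 8.77 over the 3507, and gained regions 55.9% ± 10.2 (29 regions), against 48.4% ± 10.2 over the 3623. CpG ratios were 0.315 ± 0.24 and 0.459 ± 0.284, against 0.246 ± 0.172 and 0.374 ± 0.276. Median widths were similar to the lists, at 1779 against 1905 bp (lost) and 1648 against 1697 bp (gained). The TEAD core was present in 66.7% of the lost regions, against 73.5% of the list, and in 58.6% of the gained, against 58.8%. In the central 1000 bp it was present in 57.1% of the lost regions, against 60.7%, and in 58.6% of the gained, against 45.8%. AP-1 matches were less frequent than in the lists, at 33.3% against 56.5% (lost) and 34.5% against 53.6% (gained). SP/KLF matches were more frequent, at 47.6% against 33.9% (lost) and 72.4% against 42.9% (gained). Of the 50 regions, however, 39 had another gene as the nearest protein-coding 5′ end. In the body or within 2500 bp of the 5′ end alone, AP-1 matched 4 of 6 gained regions (66.7%) and 0 of 2 lost regions. Mean GC content there was 51.1% (gained) and 51.6% (lost), and SP/KLF matched 50.0% of each kind. The SD here describes regions, which are not replicates, and regions that adjoin, as those in PXN, share their surroundings.

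**Figure D5:**
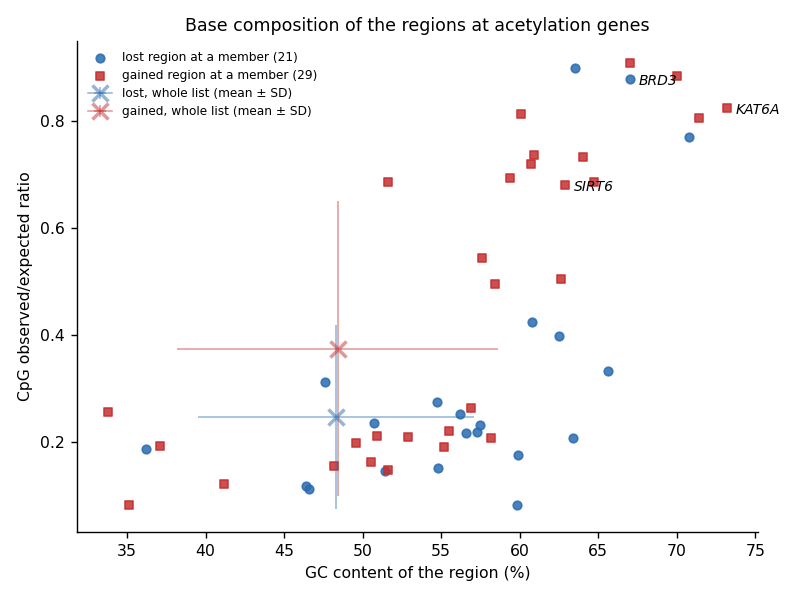
GC content (percent) and CpG observed/expected ratio of the 21 lost (blue circles) and 29 gained (red squares) regions at the 36 genes, with crosses and bars for the mean ± SD of the whole lists. The promoter regions of KAT6A, SIRT6 and BRD3 lie among the GC-rich, CpG-rich points of both kinds.

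Partner genes of the same machinery were read in a list of 94, all found in the annotation. A lost region was in the body of 8 (8.51%, against 6.11% of all genes) and a gained region in that of 13 (13.8%, against 9.50%). No region in the body or within 100 kb was found for 51 (54.3%, against 55.1%). The median gene length was 65.3 kb, against 27.5 kb for all genes, and its part in these shares was not tested. Within 2500 bp of the 5′ end, 3 had a lost region (3.19%, against 1.96%) and 7 a gained region (7.45%, against 6.41%). The lost ones were JADE1, a subunit of acetyltransferase complexes, ING1, and CHD4, the NuRD remodeller, where the region (chr12:6612328-6614675) covered the 5′ end. The gained ones included TRRAP, the scaffold of SAGA and TIP60 complexes, RBBP4, a histone chaperone of deacetylase complexes, and the readers BPTF, SMARCA4, TRIM33 and DPF2.

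HDAC6 and HDAC8, the deacetylases outside the 36, had none in the body or within 100 kb, and the same held for the 5 further acetyltransferases. Among all genes 55.1% had none, so so few genes without a region are no result about these enzymes. Of 30 other acetyl-lysine readers, 7 had a gained region (23.3%, against 9.50% of all genes) and 2 a lost region (6.67%, against 6.11%) in the body. Of these 30 genes, 18 were longer than 100 kb, against 0 of the 5 member readers. By comparison, 1 of the 5 bromodomain readers among the 36 had a lost region in the body and 0 had a gained region. The difference between these sets of readers was not tested.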

How the data were processed

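H3K27ac ChIP-seq was performed on control and OGTi-treated LX-2 cells. Per the study's methods, the authors called peaks in each replicate with MACS2 (v2.1.1.20160309 in the submitters' processing notes, which also name deepTools 2.0) and tested bins of typically 2000 bp between the arms with MAnorm2, on hg38. The names of the deposited lists give an adjusted p threshold of 0.15, whereas the methods name another, so the threshold in force is uncertain. Each list has 3 columns of positions and no measured unit. Genes and transcripts were taken from GENCODE release 44 (Python 3.11.15, pandas 2.3.3, pysam 0.24.0). Gene bodies (region centre), windows of 2500 bp and 100 kb (closest base), nearest protein-coding 5′ ends, GC content, the CpG ratio and 6 motifs on both strands were computed. The counting was tested on simulated regions. The members and the related list were chosen with earlier results of these data known. All members are accounted for, and those with a region in the body or within 2500 bp are described in full. No test between groups was possible from pooled lists. Some genes of the related list are not reported here.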

Additional observations from a re-analysis of the deposited data

How the results depend on the processing

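Of 40 alternative settings, 28 gave values close to those reported and 12 moved a count by over 1.5 times. With the 5′ ends of all transcripts, 5 members had a gained region within 2500 bp (13.9%, against 8.24% of all genes), namely KAT6A, HDAC9, HDAC10, SIRT6 and KDM6B. In a 50 kb window 8 members had a lost region (22.2%, against 11.7%), and in a 200 kb window 23 had a gained region (63.9%, against 45.8%). With the nearest 5′ end only, 4 had a lost and 4 a gained region. Restricted to the gene body or 2500 bp, acetyltransferases had 0 lost and 2 gained regions, deacetylases 1 lost and 3 gained, and readers 1 lost. Lost regions numbered 1 for sirtuins alone and gained regions 6 for classical deacetylases alone. A region touching the gene body with any base counted for 6 members when gained (16.7%, against 10.9%), and for 2 when lost. A stricter threshold, leaving out replicates and other normalizations could not be run, since the lists hold neither p-values nor replicate values. No paired analysis was possible because each of these files merges all replicates into 1 set of intervals. The depth behind each region is unknown.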

Other observations

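Genes that supply the substrate or share the target of these enzymes were read in the same way. Of the 2 supply genes, 0 lacked a region in the body or within 100 kb. Of the 4 other H3K27 methylation genes, 1 lacked one, against 55.1% of all genes. ACLY and ACSS2, which make acetyl-CoA from citrate and acetate, each had 1 gained region within 100 kb of the 5′ end and none in the gene body. Among the H3K27 methylation genes outside the 36, EZH1, the paralog of EZH2, had a gained region over its 5′ end (chr17:42744118-42745079). SUZ12 had 1 gained and EED 1 lost region within 100 kb, and KDM6A, the paralog of KDM6B, had none. Of the acetyltransferase complex subunits, TADA2A had 2 gained regions in its body, and of the deacetylase complex subunits MBD2 and CHD4 had 2 lost regions each. These genes come from the same list of 94, and no test was made on them.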
